A study of Mus musculus with 415 samples.

Results

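The Krt8 and Krt18 locus was taken as every region of the deposited accessibility table that overlaps the window chr15:101815000-101875000 of the mouse genome build mm9. Of the 23180 regions in the table, 7 overlap this window, and they are numbered here as region 1 to region 7 in order along the chromosome. The window was chosen by position, with accessibility results of these cells already known, and the measures described below are the ones it was selected on: how often each region was open, which regions opened together, and which regions elsewhere opened in the same cells. All of these values are therefore a description, with no test.

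The cells were R1 mouse embryonic stem cells that had formed embryoid bodies in hanging drops over 48 hours and had then spent 4 days in medium with retinoic acid, at a concentration given in the labels as 0.5 mM. Accessibility was read by single-cell ATAC-seq on a Fluidigm C1 chip, where the Tn5 transposase inserts sequencing adapters into open DNA. Each deposited sample is a single cell with the same treatment and time point; there is no untreated group and no named culture, so all cells together count as 1 sample and cells are not replicates. Exact (Clopper-Pearson) 95% intervals for shares of cells cover the counting of cells only. Cells differed widely in depth, from 756 to 12267 open regions with a median of 3928, and from 791 to 25069 fragments per cell. No 2 cells held identical values.

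Krt8 encodes a type II keratin and Krt18 a type I keratin, and the proteins pair into the intermediate filaments of simple epithelia. They are among the earliest keratins of the mouse embryo and are known from trophectoderm and from the endoderm layers that surround the early epiblast and coat embryoid bodies. In the RefSeq annotation of GRCm38, the later mouse build, the genes are direct neighbours on chromosome 15, with the keratin gene Krt78 on the Krt8 side and Eif4b, a translation initiation factor gene, on the Krt18 side. Krt8 is on the minus strand and Krt18 on the plus strand there, so the genes are read away from each other and their starts lie 23.9 kb apart. The centres of region 3 and region 7 lie 23.9 kb apart on mm9. Coordinates were not carried between builds, so no region is assigned to a promoter here, and the match of these distances is given as a measurement.

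The promoters are printed because the locus is named for these 2 genes. They come from RefSeq on GRCm38.p6 and cover the 250 bases before each annotated start and 20 bases after it, with matches to the searched motifs in capitals. Krt8 is at chr15:102004323-102004592 on the minus strand and Krt18 at chr15:102027966-102028235 on the plus strand, both written 5′ to 3′.
Krt8: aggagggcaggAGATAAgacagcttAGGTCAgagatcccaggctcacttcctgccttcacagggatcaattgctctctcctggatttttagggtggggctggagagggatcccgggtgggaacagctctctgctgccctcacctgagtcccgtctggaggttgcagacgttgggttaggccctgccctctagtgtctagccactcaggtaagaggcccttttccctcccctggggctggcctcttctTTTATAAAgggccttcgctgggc
Krt18: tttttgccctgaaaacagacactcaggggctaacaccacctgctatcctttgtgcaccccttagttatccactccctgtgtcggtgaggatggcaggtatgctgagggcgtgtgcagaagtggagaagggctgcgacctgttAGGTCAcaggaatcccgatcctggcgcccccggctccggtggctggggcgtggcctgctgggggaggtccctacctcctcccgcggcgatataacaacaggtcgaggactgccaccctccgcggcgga

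Both promoters hold AGGTCA, the half-site recognised by retinoic acid receptors and by other nuclear receptors, once each and on the printed strand. Of 32851 promoter windows of the same length in the table, 14.96% hold this motif on either strand. The Krt8 window alone holds TATAAA, the TATA box, on both strands in overlapping matches at the annotated start, and AGATAA, a form of the GATA factor motif, near the far end of the window. All windows hold these motifs in 12.9% and 10.5% of cases. The other motifs searched on both strands had no match in either sequence. These were the CCAAT box (CCAAT, in 35.4% of all windows), the GC box (GGGCGG, 34.2%), the AP-1 site (TGANTCA, 7.23%) and the E-box (CACGTG, 6.57%). The GC content was 58.2% for Krt8 and 61.9% for Krt18, where the median window had 52.6%. These matches describe letters and not occupied sites.

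A region counted as open in a cell when its deposited signal was above 0. A value of 0 means that no signal was recorded, which need not mean closed DNA. The shares below are thus shares of cells with recorded signal. Each of the 7 regions, taken singly, was open in a minority of the cells. Region 1, on chromosome 15 from 101814470 to 101815079, reaches into the window by 79 bp and was open in 99 cells (23.9%, interval 19.8% to 28.3%). Region 2, from 101833427 to 101833810, was open in 33 cells (7.95%, 5.54% to 10.99%). It lies 0.876 kb before region 3, from 101834686 to 101835047, which was open in 49 cells (11.8%, 8.86% to 15.3%). Region 1 was the most often open of the 7, and its interval overlaps none of the others.

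Regions 4, 5 and 6 form a close group in the middle of the window. Region 4, from 101844062 to 101844537, was open in 44 cells (10.6%, 7.81% to 13.97%). Region 5, from 101846576 to 101846779 and the narrowest of the 7, was open in 32 cells (7.71%, 5.33% to 10.7%). Region 6, from 101848345 to 101848835, was open in 50 cells (12.05%, 9.08% to 15.6%). Region 7, 9.63 kb farther on from 101858467 to 101859042, was open in 34 cells (8.19%, 5.74% to 11.3%). In order of share, regions 1, 6, 3, 4, 7, 2 and 5 follow each other, and after region 1 all neighbours in this order have overlapping intervals.

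Against the rest of the table, all regions of the locus but region 1 were open in fewer cells than the median region. Regions 5, 2 and 7 stood at percentiles of 4.91, 7.77 and 10.4 among all regions, near the lowest count in the table, 31 open cells. The median of the 7 shares was 10.6%, where the median over all 23180 regions was 14.5%, and 6 of the 7 lay below that median. The regions were also narrow, with a median of 475 bp where the table has 762 bp. Among regions of like width (within 0.25 on the log2 scale), the medians ran from 8.67% for the width of region 5 to 12.5% for that of region 1. Region 7 was the only one of the 7 whose interval lay wholly below the like-width median, 8.19% where that median was 11.8%. Region 1 was the only one wholly above it, 23.9% where that median was 12.5%. The nearest regions outside the window, from 101807559 to 101808097 and from 101882376 to 101883142, were open in 12.05% and 8.92% of cells.

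**Figure D1:**
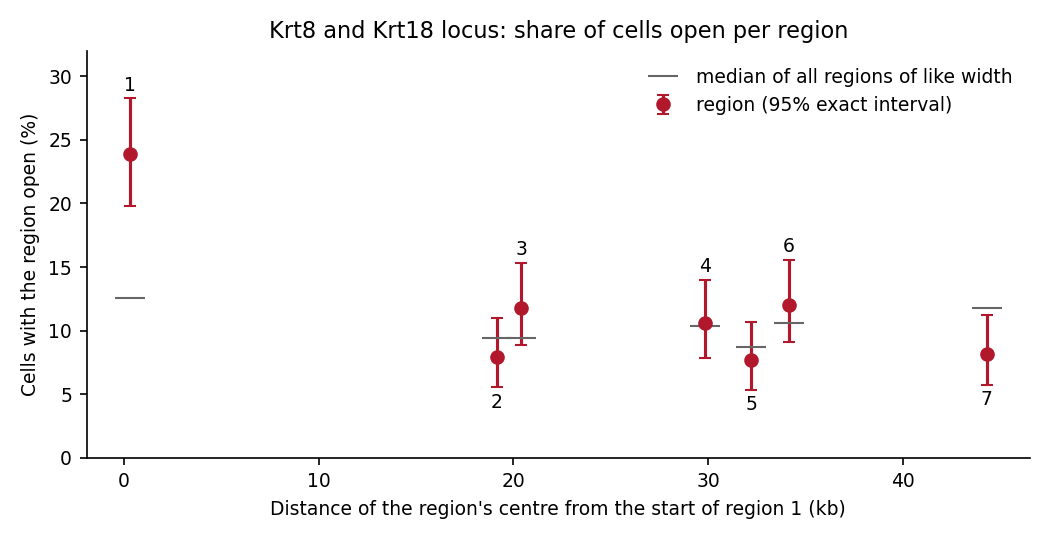
Share of all cells with each of the 7 regions open, in percent (points, with 95% exact intervals), against the distance of the region's centre from the start of region 1 in kb; the grey dashes are the median of all regions of like width. Region 1 stands at 23.9% and the other 6 between 7.71% and 12.05%.

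Signal in an open cell was low, at most 3 fragments in any of the 7 regions. One fragment is taken here as the most frequent value above 0 in the table. Open cells of region 7 held from 0.486 to 2.99 fragments with a median of 1, and 16 of its 34 open cells (47.1%) held more than 1. This was the highest such share among the 7, followed by 13 of 44 cells (29.5%) for region 4, 29 of 99 (29.3%) for region 1, 14 of 50 for region 6 and 12 of 49 (24.5%) for region 3. Regions 5 and 2 had medians of 0.723 and 0.676 fragments and exceeded 1 fragment in 5 of 32 and 2 of 33 open cells. Over all open values of the table the share above 1 fragment was 29.5%, and over the 7 regions together it was 26.7%.

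Regions 3 to 7, taken as a set, opened together more often than the pairs that include region 1 or region 2. For each pair the number of cells with both regions open was divided by the number expected from how often each region was open and how deep each cell was, a ratio of 1 meaning no more joint opening than depth gives. Regions 3 to 7, which span 24.4 kb, had 2.08 times the 58.3 joint openings expected over their 10 pairs, and each of the 10 ratios lay between 1.57 and 2.60. The 11 pairs with region 1 or region 2 had 1.08 times the 101.07 expected. Single pairs do not separate cleanly. Regions 2 and 4 were both open in 8 cells where 4.91 were expected (1.63, counting interval 0.703 to 3.21). Regions 6 and 7, within the set, were both open in 9 cells where 5.73 were expected (1.57, 0.719 to 2.98). This division was made after the ratios were seen.

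In all, 11 of the 21 pairs reached a ratio of 1.5. Among 22960 pairs of regions 1 to 50 kb apart on the 19 autosomes, 9.26% reached it, and among the 11830 of them with open shares in the range of these 7 regions, 14.6% did. One of the 21 pairs, region 2 with region 3, is closer than 1 kb and outside that range. The background pairs had a median ratio of 1.07, with 1.67 at their 95th percentile. Small numbers of cells stand behind each single ratio. Regions 5 and 6 were both open in 14 cells where 5.39 were expected (ratio 2.60, counting interval 1.42 to 4.35). Those 14 cells were 43.8% of the 32 cells open at region 5 and a smaller part of the 50 open at region 6.

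Close pairs had higher ratios on the whole, with exceptions in both directions, but distance went along with which regions were paired. All 3 pairs at 1 to 5 kb lay among regions 4 to 6. At 15 to 50 kb every pair but that of regions 3 and 7 included region 1 or region 2. The part of distance in these ratios was not tested. The 3 pairs with a gap of 1 to 5 kb had a median ratio of 2.52 where background pairs at that distance had 1.12, the 9 pairs at 5 to 15 kb had 1.63 and background pairs 1.09, and the 8 pairs at 15 to 50 kb had 1.15 and background pairs 1.06. Regions 3 and 7, the outermost of their set, were both open in 14 cells where 5.61 were expected (2.49, 1.36 to 4.18), or 28.6% of the cells open at region 3 and 41.2% of those open at region 7. Regions 4 and 5, with a gap of 2.04 kb, were both open in 12 cells where 4.77 were expected (2.52, 1.30 to 4.40). Regions 2 and 3, the closest pair, were both open in 7 cells where 5.45 were expected (1.28, 0.516 to 2.65). Regions 1 and 3, 19.6 kb apart, were both open in 17 cells where 15.7 were expected (1.08, 0.632 to 1.74). The lowest ratio was that of regions 1 and 6, with 12 cells where 15.99 were expected (0.751, 0.388 to 1.31). The correlation of depth-corrected values over the cells ran from 0.0578 to 0.251 within regions 3 to 7 and from 0.00562 to 0.133 in the other 11 pairs. All pairs share the same cells and their depth.

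**Figure D2:**
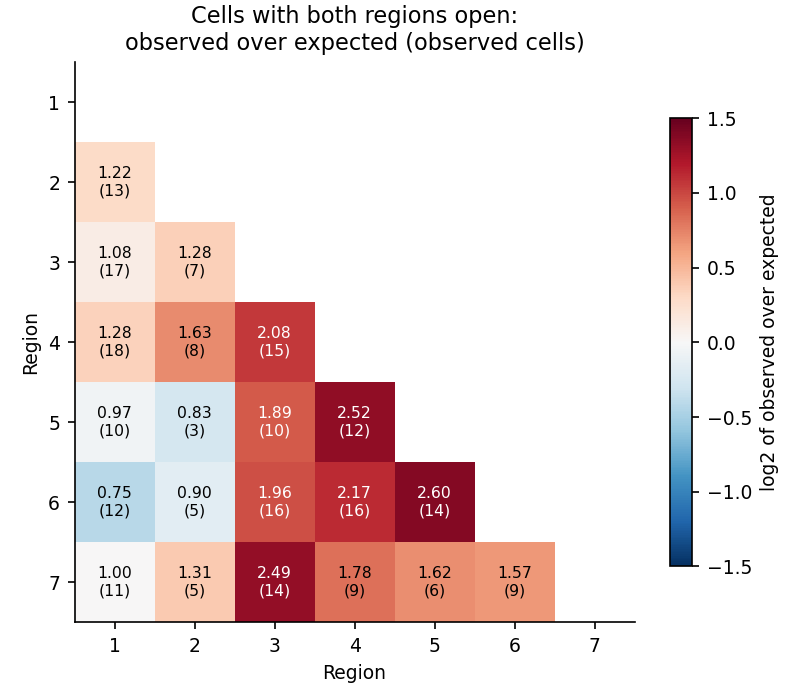
Observed over expected number of cells with both regions open, for each of the 21 pairs of regions (numbers 1 to 7 on both axes), with the observed number of cells in brackets and colour on a log2 scale. The block of regions 3 to 7 holds ratios of 1.57 to 2.60, and the columns of regions 1 and 2 hold 0.751 to 1.63.

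More cells than depth gives had no open region, and more had many. None of the 7 regions was open in 52.5% of the cells (interval 47.6% to 57.4%), where depth gives 191.8 cells or 46.2%. A single region was open in 26.99% of the cells (22.8% to 31.5%), where depth gives 33.3%, and 47 cells had 2 open where 59.6 were expected. At least 4 regions were open in 15 cells (3.61%, 2.04% to 5.89%) where 6.11 were expected, and 6 cells had 5 open where 0.990 were expected. No cell had 6 or 7 open, which allows a share of up to 0.723% when a count of 0 is taken to allow 3 cells. Among regions 3 to 7 alone, 7 cells had at least 4 open where 0.922 were expected.

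**Figure D3:**
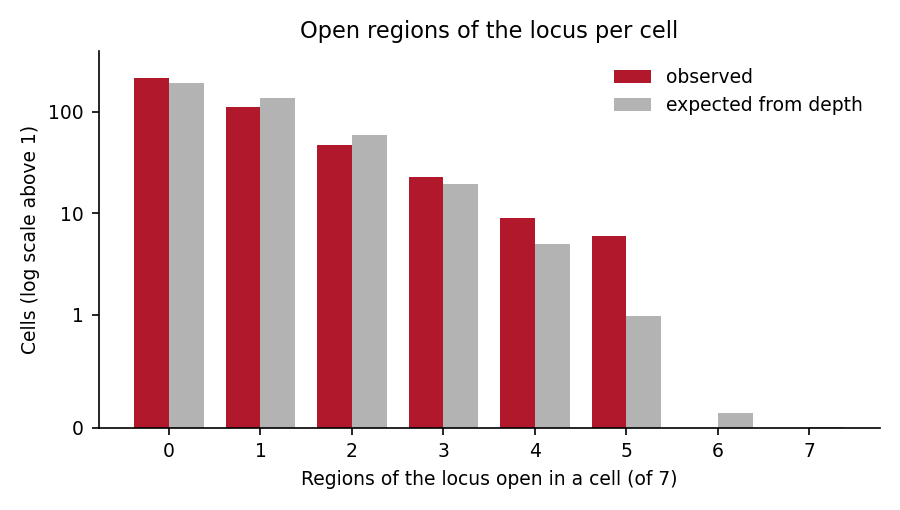
Number of cells (log scale above 1) by how many of the 7 regions were open in the cell, observed (left bars) and expected from depth alone (right bars). Observed cells exceed the 191.8 expected at 0 regions and exceed the expected ones from 3 regions upwards, up to 6 cells with 5 regions open where 0.990 were expected.

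The cells in which regions 3 to 7 opened were mostly those of 1 cluster. Cells were grouped into 3 clusters from all autosomes except chromosome 15, so that no region of the locus or near it took part. Cluster 3 held 25.1% of the cells (interval 20.96% to 29.5%), cluster 1 held 48.4% and cluster 2 held 26.5%. Cluster 3 was singled out after its openings of regions 3 to 7 were seen to be the highest of the 3. No gene annotation on mm9 was at hand, so the clusters are not named as cell types. Regions 3 to 7 were open in a mean of 27.9% of the cells of cluster 3 and in 4.12% of the cells outside it. Scaled by depth the ratio was 7.07, with a counting interval of 5.24 to 9.65. Regions 1 and 2 were open in a mean of 17.8% of cluster 3 and 15.3% of the other cells, a depth-scaled ratio of 1.20 (0.798 to 1.77). Median depth was 3797 open regions per cell in cluster 3 and 3949 outside it.

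Each of the 5 regions showed this difference by itself, with intervals that do not overlap between cluster 3 and the other cells. The clusters were made from accessibility, and the share of all regions with such intervals was not taken. The difference is thus not read as particular to the locus. Region 7 was open in 26 cells or 25% of cluster 3 (17.03% to 34.4%), against 8 cells or 2.57% outside it (1.12% to 5.01%), which is a depth-scaled ratio of 10.2 with bounds of 4.48 and 26.02. Region 6 reached 37 cells or 35.6% of cluster 3 (26.4% to 45.6%), against 13 cells or 4.18% outside it (2.24% to 7.04%), a ratio of 8.87 with bounds of 4.61 and 18.2. Region 3 reached 33 cells or 31.7% of cluster 3 (22.9% to 41.6%), against 16 cells or 5.14% outside it (2.97% to 8.22%), a ratio of 6.43 with bounds of 3.44 and 12.5. Region 4 was open in 27.9% of cluster 3 and 4.82% of the other cells (ratio 6.04), and region 5 in 19.2% and 3.86% (ratio 5.22). The intervals of the 5 ratios overlap, so their order is not established. Every region of the table was open in at least 31 cells. Outside cluster 3, regions 3 to 7 were open in 16, 15, 12, 13 and 8 cells, all below that limit. They stand above it only with their openings in cluster 3 counted, so part of the contrast is set by this limit.

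For regions 1 and 2 the intervals of cluster 3 and of the other cells overlapped. Region 1 was found open in 28 cells or 26.9% of cluster 3 (18.7% to 36.5%), against 71 cells or 22.8% outside it (18.3% to 27.9%), a depth-scaled ratio of 1.21 with bounds of 0.751 and 1.90. Region 2 was found open in 9 cells or 8.65% of cluster 3 (4.03% to 15.8%), against 24 cells or 7.72% outside it (5.01% to 11.3%), a ratio of 1.18 with bounds of 0.481 and 2.62. Region 2 thus lies 0.876 kb from a region that cluster 3 opened 6.43 times as often, and for the pair of them these intervals do not overlap. Of the cells open at region 7, 76.5% belonged to cluster 3 (58.8% to 89.3%), and of those open at region 1, 28.3% did (19.7% to 38.2%), where cluster 3 made up 25.1% of all cells.

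**Figure D4:**
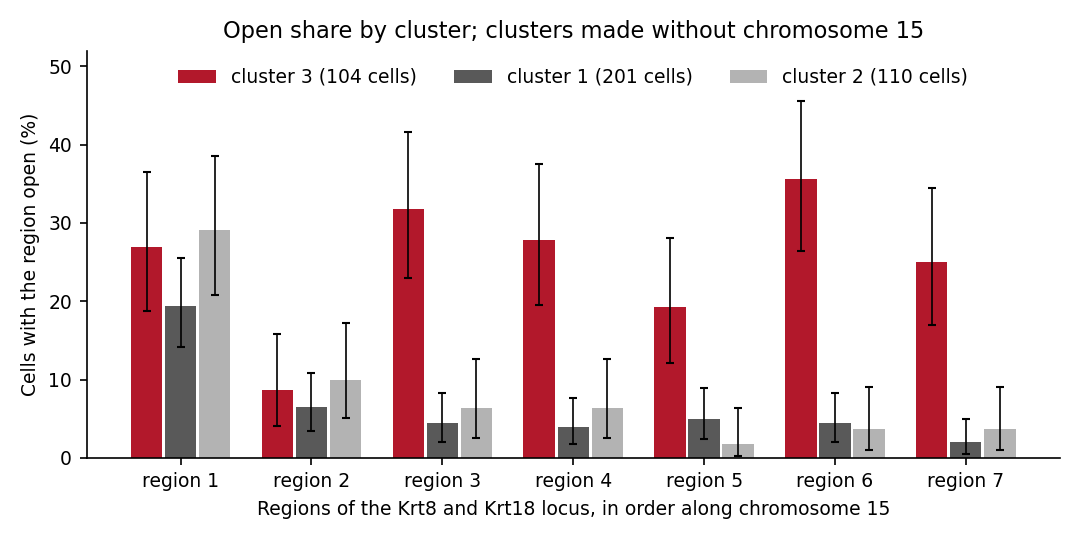
Share of cells with each of the 7 regions open, in percent, in cluster 3 (left bars), cluster 1 (middle) and cluster 2 (right), with 95% exact intervals. Regions 3 to 7 stand at 19.2% to 35.6% in cluster 3, and regions 1 and 2 have overlapping intervals in all 3 clusters.

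Openings with more than 1 fragment also lay mostly in cluster 3 for regions 4 to 7. For region 6 it was found in 13 cells of cluster 3 and 1 cell outside it, for region 7 in 13 and 3, and for region 4 in 11 and 2. For region 5 it was found in 5 cells of cluster 3 and in 0 cells outside it, which by the same measure allows a share of up to 0.965%. Region 3 had 7 such cells in cluster 3 and 5 outside it. Region 1 had 4 in cluster 3 and 25 outside it, and region 2 had 2 in cluster 3 and 0 outside it.

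At least 1 of regions 3 to 7 was open in 76 cells of cluster 3 (73.1%, interval 63.5% to 81.3%) and in 47 cells outside it (15.1%, 11.3% to 19.6%). At least 2 were open in 45.2% of cluster 3 (35.4% to 55.3%) and in 4.18% of the other cells (2.24% to 7.04%). When depth was fitted within cluster 3 alone, the 10 pairs of regions 3 to 7 had 99 joint openings where 95.3 were expected (ratio 1.04, counting interval 0.844 to 1.27). Within the cells outside it they had 22 where 7.75 were expected (2.84, 1.78 to 4.30). Within cluster 3 the interval thus includes the level that the regions' own shares give, and among the few open cells outside it the interval lies above that level. The intervals treat joint openings as independent, and 1 cell with several open regions counts in several pairs.

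Each cell carries a number in its title that no label explains, and this number went along with the openings of regions 3 to 7. In 4 consecutive sets of near-equal size, from the lowest to the highest title numbers, these regions were open in a mean of 13.3%, 12.9%, 6.73% and 7.38% of cells. Over expected openings these are ratios of 1.39, 1.28, 0.645 and 0.723. Region 7 was open in 11, 12, 2 and 9 cells of the sets and region 3 in 19, 13, 9 and 8. Regions 1 and 2 did not follow this course, with ratios of 0.730, 1.18, 1.05 and 1.03. Cluster 3 itself held 37, 39, 13 and 15 cells of the sets. Within cluster 3 the mean share of regions 3 to 7 was 29.7%, 27.7%, 20% and 30.7% in the 4 sets, and among the other cells it was 4.18%, 4%, 4.84% and 3.41%. The difference between cluster 3 and the other cells was thus present in each set. Whether the title numbers mark chips or runs was not tested.

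Depth also went along with the locus. Cells were divided into 4 classes of near-equal size by depth. In the shallowest class, with 756 to 2539 open regions per cell, regions 3 to 7 had 32 openings where 19.5 were expected (ratio 1.64). In the next classes, towards deeper cells, the ratios were 1.68, 0.816 and 0.723. Regions 1 and 2 had ratios of 0.919, 1.05, 1.02 and 0.987. Over all 23114 regions elsewhere, the median ratio of joint openings with the locus was 0.908, or -0.14 on the log2 scale, and the ratios with regions elsewhere are read beside that median. The part of depth in these ratios was not tested.

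Taken with all 7 regions together, the flanks of the locus as a whole had joint openings near the expected number. For every other region, joint openings were summed over the 7 regions and divided by their expected sum. This sum includes regions 1 and 2, so it is not the measure used for the pairs within regions 3 to 7. Of the 59 regions within 1 Mb of the locus, 0 reached a ratio of 1.5 and 1 had 0.667 or less, where 3.86% and 11.2% of the regions farther away did. Their summed ratio was 1.01 within 100 kb (7 regions), 0.973 from 100 to 500 kb (21 regions) and 0.942 from 500 to 1000 kb (31 regions). The nearest region below the locus, 6.37 kb away, had 56 joint openings where 56.5 were expected (0.990), and the nearest above it, 23.3 kb away, had 37 where 42.2 were expected (0.877). Against the other 6, region 4 had a ratio of 1.80, region 3 of 1.67, region 5 of 1.66, region 7 of 1.55, region 6 of 1.49, region 2 of 1.21 and region 1 of 1.04.

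The highest ratios in the flanks lay far out. The region from 102504074 to 102504424, 645.03 kb away, had 89 joint openings where 60.9 were expected (1.46, counting interval 1.17 to 1.80). Its ratios with regions 3 to 7 were 1.36, 2.14, 1.72, 1.89 and 1.62, and its ratio with region 1 was 0.754. It was followed by the region from 102155798 to 102156904 with 1.44 and that from 101084375 to 101085036 with 1.35. The lowest was the region from 100882407 to 100883418, with 40 where 60.9 were expected (0.657, 0.469 to 0.894). Its ratios with regions 3 to 7 ran from 0 to 0.557. The next lowest were the region from 100928408 to 100928839 with 0.672 and that from 101804194 to 101804411, 10.1 kb from region 1, with 0.691.

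**Figure D5:**
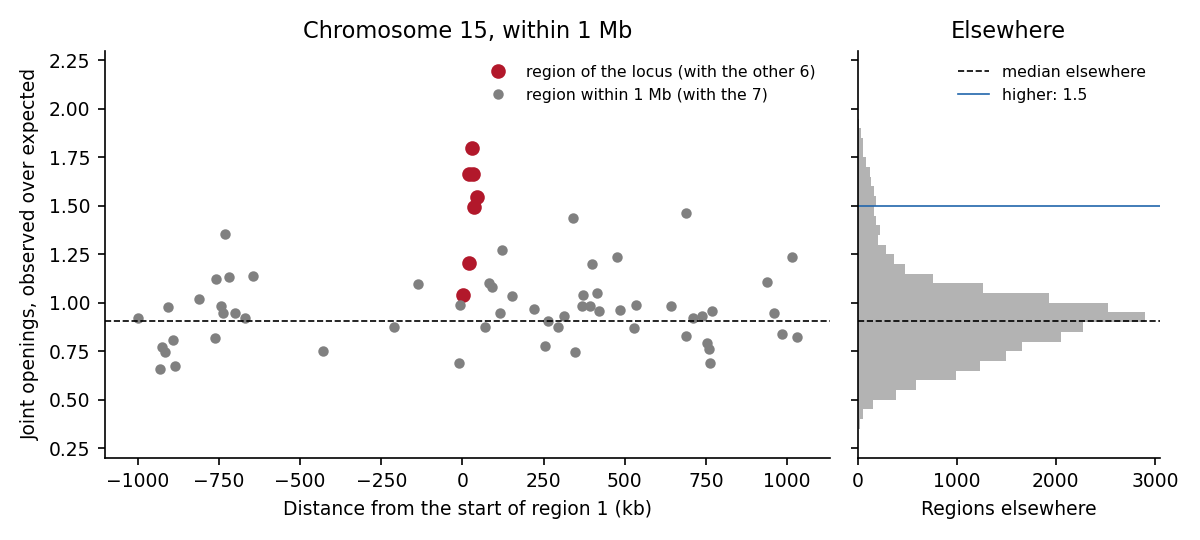
Left, joint openings with the locus, observed over expected, against distance from the start of region 1 in kb, for the 7 regions (large points, each with the other 6) and the 59 regions within 1 Mb (small points); right, the number of regions elsewhere at each ratio, with the median of 0.908 dashed and the ratio of 1.5 as a line. Regions of the locus reach 1.80, and the small points stay at or below 1.46.

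Regions on every chromosome opened in the same cells as the locus. Of the 23114 regions elsewhere, meaning on another chromosome or over 1 Mb away, 892 had joint openings at least 1.5 times the expected number (3.86%), and 2586 had at most 1/1.5 of it (11.2%). Higher regions thus made up 25.6% of those past either limit. The median ratio lay below 1, so this share is read only beside those that follow. After division by the median ratio of 0.908, 1399 regions were higher and 1313 lower, and higher ones made up 51.6%. In the deeper cells alone, 1294 were higher and 1119 lower, and higher ones made up 53.6%. The largest share of higher regions was on chromosome 16, with 5.43% of its regions, and the smallest on chromosome X, with 3 of 499 regions (0.601%). The last region counted as higher had a ratio of 1.5015 and the first not counted 1.4999.

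The regions past either limit were narrower and less often open than the table as a whole. The 892 higher regions had a median width of 525 bp and a median open share of 9.16% of cells, and the 2586 lower ones had 607 bp and 10.12%. All regions elsewhere had 762 bp and 14.5%. The part of width and open share in the ratios was not tested. Along the genome, 761 bins of 100 kb held 1 of the 892, 61 held 2 and 3 held 3. Of the 892, 21.97% had a ratio above 1 in each of the 4 sets of title numbers, where 1.55% of all regions elsewhere did. Of the 2586 lower regions, 1902 had a ratio below 1 in each set, and the share over all regions was not taken. The median ratio of 0.908 lies below 1, so the count of lower regions is not to be compared with that of higher ones. The sets hold the same cells that chose these regions, so both counts are a description.

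Read 1 region at a time, each of regions 3 to 7 opened often with the regions chosen through the others. When the higher regions were chosen with 6 of the 7 regions and read on the left-out one, the summed ratio with region 4 was 2.12 over 662 chosen regions, where it was 0.930 over all regions elsewhere. With region 7 it was 2.03 over 750 regions and 0.937 over all, and with region 3 it was 1.94 over 725 and 0.883 over all. Regions 5 and 6 gave 1.92 and 1.90 over their chosen regions and 0.805 and 0.832 over all. With region 1 it was 0.949 over 1452 chosen regions and 0.995 over all. With region 2 it was 1.12 over 1009 chosen regions and 1.05 over all. These readings share the same cells.

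The partner regions with the highest ratios were open in few cells, nearly all of which had the locus open too. The 10 highest on autosomes other than chromosome 15, among those above 1 in each set of title numbers, had ratios of 1.94 to 2.14. The first, on chromosome 7 from 135686145 to 135687001, had 76 joint openings where 35.5 were expected (2.14, counting interval 1.69 to 2.68). It was open in 31 cells, and 27 of them (87.1%, interval 70.2% to 96.4%) had at least 1 of the 7 regions open, where depth gives 64.9%. The second, on chromosome 2 from 49206450 to 49206831, had 77 joint openings where 36.6 were expected (2.10), and 28 of its 32 open cells had the locus open. That on chromosome 18 from 42240351 to 42240864 had a ratio of 1.94, and 31 of its 33 open cells (93.9%, 79.8% to 99.3%) had the locus open where depth gives 65.6%.

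Chromosome 6 held 2 of the other 7, at 136710436 to 136710888 (ratio 2.03) and at 83432366 to 83432985 (1.995). Chromosome 11 held 100353375 to 100354237 (2.03), chromosome 8 held 129972913 to 129973227 (2.002), and chromosome 4 held 32424694 to 32425032 (1.99). The last were 78018555 to 78019101 of chromosome 5 (1.97), open in 41 cells, and 11546581 to 11546945 of chromosome 13 (1.94). Every region of the table was open in at least 31 cells, so several of the 10 lie at its lower limit. Over the 10, ratios with each single one of regions 3 to 7 ran from 1.63 to 3.46, and with region 1 from 0.939 to 1.498. Their ratios ran from 1.36 to 3.72 in the second set of title numbers and from 1.02 to 1.54 in the third. Because these 10 are the extremes of a long list, their ratios lean high. None of them can be given a gene name here, because no annotation on mm9 was used.

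Most cells open at the 5 lowest regions had no recorded signal in any of the 7 regions of the locus. The region on chromosome 9 from 118017463 to 118018207 had 10 joint openings where 38.8 were expected (0.258, counting interval 0.124 to 0.474), and 7 of its 34 open cells (20.6%, 8.70% to 37.9%) had any of the 7 regions open, where depth gives 65.003%. The next 3 others had a ratio of 0.292 each: 141331176 to 141331516 of chromosome 7, 89817032 to 89817421 of chromosome 11, and 115385800 to 115386287 of chromosome 5. The last, 34117219 to 34117665 of chromosome 1, had 0.310. The ratios of the 5 were below 1 with every one of the 7 regions, including region 1, with 0.365 to 0.599. Because these 5 are extremes of a long list, chosen on the sum over the same 7 regions, their ratios lean low.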

How the data were processed

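The deposited table holds 1 signal value for each of 23180 regions in each of 415 cells, and this unit is read from the values, of which 37.6% of those above 0 equal 1 common value, taken as 1 fragment. The submitters' processing notes name MACS2 and the build mm9. How reads were aligned, duplicates handled and regions chosen is not stated there. Coordinates are the deposited ones.

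A region was open where its signal was above 0. The chance of an open region in a cell was fitted as 1 − exp(−a × b), where a belongs to the region and b to the cell and both reproduce their totals, and expected joint openings are sums of products of these chances. The calculation was tested on simulated data. Clusters came from log-transformed term-frequency values, components 2 to 10 of a singular value decomposition and k-means with 50 starts (scikit-learn 1.9.0, numpy 2.4.6, scipy 1.17.1, Python 3.11.15), without chromosomes 15 and X. Counting intervals of ratios are exact Poisson or binomial intervals at 95%.

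The locus, its measures and all lists were chosen with earlier results of these data known. All 7 regions were to be named. Elsewhere these were the 10 highest ratios above 1, and the 5 lowest below 1, in each of 4 sets of title numbers, with at least 10 expected joint openings, and in the flanks the 3 highest and 3 lowest. Lists of marker genes had been planned, need an annotation on mm9 and were not run. Alternatives covered the definition of open, depth, title numbers, single regions of the locus and limits.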

Additional observations from a re-analysis of the deposited data

How the results depend on the processing

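The depth-scaled ratio of regions 3 to 7 between cluster 3 and the other cells, 7.07, stayed between 6.65 and 8.92 under 8 alternatives chosen after seeing the data: 2 or 4 clusters, thinned cells, deeper cells, and leaving out each set of title numbers. The ratio between the lowest and the highest set of title numbers for all 7 regions, 1.35 with a counting interval of 0.979 to 1.86, was 1.16 to 1.63 under its 4 alternatives. With open defined as more than 1 fragment, the mean share of the 7 regions was 3.13% in place of 11.7%, and 3.03% of the regions elsewhere were higher and 18.7% lower, of 7366 with enough expected openings. In the deeper cells the mean share was 14.6%, with 5.60% of regions higher and 4.84% lower. In the shallower cells it was 8.90%, the ratio over all 21 pairs was 2.20 in place of 1.44, the ratio for cells with at least 3 open regions was 3.21 in place of 1.495, and 12.3% of regions were higher and 16.8% lower. With cells thinned to 1500 open regions, which left out 33 cells, these ratios were 1.88 and 6.01, and 5.23% of regions were higher and 12.6% lower, of 5870. The flanks, at 0.961 over all 59 regions, came to 1.03 in deeper cells, 1.05 in shallower cells and 1.04 in thinned cells, and the cause was not tested. Without region 1, 6.28% of regions elsewhere were higher and 22.1% lower, in place of 3.86% and 11.2%. With regions 3 to 7 alone, chosen after seeing the data, the pair ratio was 2.08 and 6.92% of regions were higher and 27.2% lower. Without the third set of title numbers 16.9% were lower. At a ratio of 2, 0.0519% (12 regions) were higher and 1.06% lower. Divided by the median, also chosen after seeing the data, 6.05% were higher and 5.68% lower. Background pairs of like open share reached 1.5 in 14.6% of cases in place of 9.26%. Of the 892 regions, 694 were also among the 892 with the highest correlation of depth-corrected values. Depth rates fitted without chromosome 15 or without the 14 regions of very high signal, and minimums of 5 or 20 expected joint openings, changed no count by more than 1. No paired analysis was possible because the series has 1 group. With 32 to 99 open cells per region, single ratios are imprecise.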
